A study of Mus musculus with 6 samples.

Results

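The 10 genes described here act in the breakdown and storage of triglyceride in fat cells: the lipases Lipe, Pnpla2 and Mgll, the lipase cofactor Abhd5 and the lipase inhibitor G0s2, the droplet proteins Plin1, Plin2, Plin4 and Cidec, and the glycerol channel Aqp7. They were chosen by symbol, and all 10 were found among the 55573 genes listed and among the 16868 genes tested. Their mRNA was measured by RNA-seq of whole inguinal white adipose tissue (iWAT) from 3 mutant and 3 wild type (Wt) male mice, with 1 library per mouse. Mutant mice carry K283Q/K288R, substitutions at sumoylation sites of thyroid hormone receptor alpha (THRA), as a homozygous knock-in at the endogenous gene, so the mutant receptor is present in every tissue that makes THRA and not only in fat. All 6 mice were of strain C57BL/6NTac, 3 months old, on regular chow and without treatment, and the Wt mice were in-house bred controls that are not described as littermates of the mutant mice. The comparison asked how the levels of these genes in iWAT of mutant mice differed from those of Wt mice.

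In the fat cell, triglyceride is held in a lipid droplet whose surface is coated with proteins. Adipose triglyceride lipase, the product of Pnpla2, removes the first fatty acid, hormone-sensitive lipase, the product of Lipe, removes the next from diacylglycerol, and monoglyceride lipase, the product of Mgll, releases glycerol and the last fatty acid. ABHD5 activates adipose triglyceride lipase and G0S2 inhibits it, while perilipin 1 binds ABHD5 at the droplet until protein kinase A phosphorylates perilipin 1 and ABHD5 is released.

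The libraries held 19607423 to 24228381 reads on genes, and values are normalized CPM, the reads of a gene scaled to the depth of its library and by a factor for each mouse. The 10 genes had 1780 to 84486 reads per mouse, so counting error was small beside the differences between mice. Of all reads they took 1.43%, 1.12% and 1.11% in Wt (mouse 1, 2 and 3, the order used throughout) against 1.03%, 0.944% and 0.778% in mutant mice. Every mutant share was thus below every Wt share. At the deposited scaling their sums were 14465, 10832 and 10025 normalized CPM in Wt and 10712, 8665 and 7134 in mutant mice. There mutant mouse 1 lay above Wt mouse 3, so the groups overlapped. Thra was at 147, 128 and 117 normalized CPM in Wt and 170, 140 and 137 in mutant mice (log2 difference 0.19, SE 0.13, adjusted p = 0.404 by limma), and since the knock-in changes codons its level checks no label. The 8 markers of mature adipocytes (Adipoq, Fabp4, Pparg, Cebpa, Cfd, Retn, Acvr1c and Slc2a4) were all present, with summed levels of 15780 to 22436 normalized CPM in Wt and 12393 to 19565 in mutant mice. None of the 8 passed the limma test (1 had an unadjusted p under 0.05), edgeR's quasi-likelihood test called 0 and DESeq2 called 1, Cfd. Some markers of other cell types differed between the genotypes in these whole-tissue samples. Of 8 mesothelium markers 6 were higher in mutant mice by limma, with sums of 4.96 to 41.8 in Wt and 36.3 to 75.9 in mutant mice, and 1 marker was at 0 in Wt mouse 1 and 3 were at 0 in Wt mouse 2. The other 2, Krt19 and Krt8, had log2 differences of -0.17 and -0.97 and did not pass. They made up most of the sum in Wt mouse 1, at 28.5 and 10.1. Of 8 skeletal muscle markers 1, Myh1, was higher by limma, with sums of 11139 to 24033 in Wt and 17766 to 27878 in mutant mice. DESeq2 called 2 higher, Myh1 and Mylpf, and the limma log2 difference was above 0 for 7 of the 8. In 3 of them, Myh1, Myh2 and Mylpf, every mutant mouse was above every Wt mouse (14.9% of all genes). The 8 B and T lymphocyte markers had sums of 493, 1057 and 1209 in Wt and 43.7, 658 and 951 in mutant mice, lowest in mouse 1 of each genotype and far lower in mutant mouse 1 than in any other. The 6 epithelium markers had sums of 5.59 to 72.1 and 3.42 to 23.2 in Wt and mutant mice, with 1 epithelium marker at 0 in mutant mouse 3. Macrophage sums were 968 to 1225 and 935 to 1079, progenitor sums 644 to 709 and 712 to 967, and endothelium sums 705 to 760 and 734 to 846. By limma the log2 difference was above 0 for 5 of 5 progenitor and 3 of 4 endothelium markers. It was below 0 for 8 of 8 lymphocyte, 5 of 6 epithelium and 4 of 5 macrophage markers. None of the 8 lymphocyte, 6 epithelium, 5 macrophage, 5 progenitor and 4 endothelium markers passed the limma test (6 of these 28 had an unadjusted p under 0.05), and edgeR's quasi-likelihood test called 0. DESeq2 called 3 lower (2 epithelium and 1 macrophage) and 3 higher (1 progenitor and 2 endothelium). Over all genes tested, 24.2% had an unadjusted p under 0.05 by limma, and DESeq2 called 12.6%. Of 5 brown fat markers 4 were tested and 1, Ucp1, was lower, with sums of 53.7 to 82.7 in Wt and 36.8 to 59.2 in mutant mice. The part of these cell types in the results for the 10 genes was not tested, and in whole tissue fewer cells of a type and less RNA per cell cannot be told apart.

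The promoters of Lipe, Plin4, Abhd5 and G0s2 are shown because these genes moved together from mouse to mouse while their genotype means differed in opposite directions, lower for Lipe and Plin4 and higher for Abhd5 and G0s2. Each run covers 250 bases before to 50 after a transcript start of the RefSeq annotation of GRCm38.p6, on the strand of the gene. The windows are chr7:25395938-25396237 (-) for Lipe, chr17:56109733-56110032 (-) for Plin4, chr9:122351366-122351665 (+) for Abhd5 and chr1:193273139-193273438 (-) for G0s2. Capitals mark CACGTG, the E-box, in Lipe, and TGACCT, the reverse complement of the nuclear receptor half-site AGGTCA, in Abhd5.
Lipe: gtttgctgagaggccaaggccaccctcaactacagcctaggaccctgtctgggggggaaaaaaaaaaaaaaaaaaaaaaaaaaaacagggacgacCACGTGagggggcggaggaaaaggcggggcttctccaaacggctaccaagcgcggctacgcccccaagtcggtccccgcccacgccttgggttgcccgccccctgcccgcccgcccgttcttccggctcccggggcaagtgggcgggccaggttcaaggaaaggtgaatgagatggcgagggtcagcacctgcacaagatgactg
Plin4: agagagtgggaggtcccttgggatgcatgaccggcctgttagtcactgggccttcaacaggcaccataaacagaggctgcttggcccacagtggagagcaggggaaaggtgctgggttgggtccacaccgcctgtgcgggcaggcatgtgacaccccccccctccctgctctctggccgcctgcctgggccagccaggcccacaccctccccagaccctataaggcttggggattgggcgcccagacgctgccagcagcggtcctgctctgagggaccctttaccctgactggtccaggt
Abhd5: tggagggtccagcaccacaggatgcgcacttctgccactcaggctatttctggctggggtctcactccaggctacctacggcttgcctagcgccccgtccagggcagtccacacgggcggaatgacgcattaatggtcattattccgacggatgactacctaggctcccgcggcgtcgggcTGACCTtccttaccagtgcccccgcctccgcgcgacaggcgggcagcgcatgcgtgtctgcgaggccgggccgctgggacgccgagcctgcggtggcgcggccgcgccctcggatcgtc
G0s2: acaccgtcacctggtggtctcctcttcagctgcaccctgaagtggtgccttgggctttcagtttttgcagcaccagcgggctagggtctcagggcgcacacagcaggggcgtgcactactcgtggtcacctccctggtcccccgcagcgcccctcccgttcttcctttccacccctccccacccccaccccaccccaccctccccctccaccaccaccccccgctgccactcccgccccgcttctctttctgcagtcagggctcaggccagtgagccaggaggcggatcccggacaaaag
Lipe has another window, not shown, and which start the iWAT transcripts used was not examined.

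All 10 genes had an entry, with 14 windows between them. Motifs were searched as exact letters on both strands. The half-site AGGTCA, which is also part of both repeats below, was in 4 of the 14 windows (16.3% of 32851 windows of all genes), at -69 to -64 in Abhd5, at -218 to -213 in Plin2 and in both windows of Aqp7, counted with the first transcribed base as 0. The windows of Aqp7 overlap and have a site in common, which is counted in each. CACGTG was in 3 of 14 (7.15%), at -155 to -150 in Lipe, at -44 to -39 in Mgll and at -4 to 1 in Plin2. The half-site repeat spaced by 1 base, AGGTCANAGGTCA, which the fat-cell receptor PPARG binds, was in 0 of 14 (0.0396%). The repeat spaced by 4 bases, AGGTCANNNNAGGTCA, a thyroid hormone receptor element, was in 0 of 14 (0.0152%), and the cAMP response element TGACGTCA was in 0 of 14 (1.79%). These letters are descriptions of the windows and not binding sites.

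At the deposited scaling the lipases Lipe and Pnpla2 and the coat gene Plin4 had lower means in mutant mice, Abhd5 and G0s2 had higher means, and Mgll, Plin2 and Aqp7 had ratios of 0.943 to 0.957 of mutant to Wt means, with a sign that turned when Wt mouse 1 or mutant mouse 3 was left out. None of the 10 passed the limma test at a false discovery rate (FDR) of 0.05, where 8.11% of all genes tested did (2.61% lower and 5.5% higher). Unadjusted p was under 0.05 for 2 of the 10, Plin4 and Abhd5 (24.2% of all genes). On the reads themselves edgeR's quasi-likelihood test called 0 of the 10 (7.41% of all genes) and DESeq2 called 1, Plin4 (12.6%). Scaled by library size alone, limma called Plin4 (adjusted p = 0.0451), and over all genes that scaling gave 265 lower and 1019 higher calls in place of 440 and 928, while a GC correction gave 156 and 843. In 2 of the 10, Pnpla2 and Plin4, every mutant mouse was below every Wt mouse (15.7% of all genes), and in 0 every mutant mouse was above (14.9%). The log2 difference was below 0 for 8 of the 10, with a median of -0.17 beside -0.05 over all genes tested. Without Wt mouse 1 it was below 0 for 5 of the 10, with a median of -0.0045 beside -0.0361 over all genes, and without mutant mouse 3 also for 5, with a median of -0.0291 beside -0.0336.

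Among the lipases, Pnpla2 (ENSMUSG00000025509, chr7:141455198-141460743, + strand) was at 2453, 1855 and 1752 normalized CPM in Wt and 1745, 1393 and 1172 in mutant mice. Every mutant mouse was below every Wt mouse, with mutant mouse 1 just under Wt mouse 3. The means were 2020 ± 378 and 1437 ± 289 (SD, n = 3), a ratio of 0.711, with a log2 difference of -0.49 (SE 0.23, adjusted p = 0.246 by limma). Lipe (ENSMUSG00000003123, chr7:25379527-25398710, - strand) was at 2189, 1674 and 1551 in Wt and 1601, 1237 and 1081 in mutant mice. The groups overlapped, as mutant mouse 1 lay above Wt mouse 3. The means were 1805 ± 338 and 1306 ± 266 (SD, n = 3), a ratio of 0.724, with a log2 difference of -0.47 (SE 0.22, adjusted p = 0.259 by limma). Mgll (ENSMUSG00000033174, chr6:88724412-88828360, + strand) was at 1313, 951 and 901 in Wt and 1194, 1016 and 813 in mutant mice, and the groups overlapped over most of their range. Its log2 difference was -0.06 (SE 0.22, adjusted p = 0.873 by limma).

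The regulators of Pnpla2 differed in the other direction from Pnpla2 itself. Abhd5 (ENSMUSG00000032540, chr9:122351608-122381524, + strand), the activator, was at 115, 86.6 and 80.5 normalized CPM in Wt and 161, 128 and 112 in mutant mice. Mutant mouse 3 was just below Wt mouse 1, the only overlap. The means were 94.2 ± 18.7 and 133 ± 24.9 (SD, n = 3), a ratio of 1.42, with a log2 difference of 0.50 (SE 0.18, unadjusted p = 0.0314, adjusted p = 0.160 by limma). G0s2 (ENSMUSG00000009633, chr1:193272161-193273217, - strand), the inhibitor, was at 181, 135 and 126 in Wt and 228, 187 and 152 in mutant mice. Wt mouse 1 lay above mutant mouse 3, so the groups overlapped. The means were 147 ± 29.1 and 189 ± 37.9 (SD, n = 3), a ratio of 1.28, with a log2 difference of 0.36 (SE 0.19, adjusted p = 0.310 by limma). Without mutant mouse 1 the log2 difference of G0s2 was 0.21. The means of the activator and the inhibitor thus differed in the same direction, and neither gene passed the test.

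Of the droplet proteins, perilipin 4 coats small droplets in fat cells, and Plin4 (ENSMUSG00000002831, chr17:56100591-56109803, - strand) had the greatest difference of the 10. It was at 3540, 2677 and 2390 normalized CPM in Wt and 1928, 1677 and 1282 in mutant mice. The highest mutant mouse was well below the lowest Wt mouse. The means were 2869 ± 598 and 1629 ± 326 (SD, n = 3), a ratio of 0.568, with a log2 difference of -0.82 (SE 0.25, unadjusted p = 0.0156, adjusted p = 0.108 by limma, 0.00199 by DESeq2). An exact two-sided permutation test of the 6 values gave p = 0.1, the smallest that 3 against 3 allows.

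The other droplet proteins had smaller differences. Plin1 (ENSMUSG00000030546, chr7:79720218-79732903, - strand), the main coat protein of fat cells, was at 2317, 1782 and 1543 in Wt and 2030, 1443 and 1307 in mutant mice (log2 difference -0.24, SE 0.25, adjusted p = 0.566 by limma). Cidec (ENSMUSG00000030278, chr6:113424634-113435760, - strand), which passes lipid from smaller to larger droplets, was at 1850, 1313 and 1305 in Wt and 1346, 1207 and 890 in mutant mice (log2 difference -0.38, SE 0.23, adjusted p = 0.364 by limma). In both genes mutant mouse 1 lay above at least 1 Wt mouse. Plin2 (ENSMUSG00000028494, chr4:86648386-86670060, - strand), a coat protein of most cell types, was at 305, 207 and 235 in Wt and 291, 225 and 199 in mutant mice (log2 difference -0.06, SE 0.19, adjusted p = 0.860 by limma). Aqp7 (ENSMUSG00000028427, chr4:41033074-41048139, - strand), through which glycerol leaves the fat cell, was at 204, 152 and 139 in Wt and 190, 152 and 124 in mutant mice (log2 difference -0.09, SE 0.20, adjusted p = 0.811 by limma). For both genes the genotypes lay over each other. Leaving out 1 mouse moved the log2 difference of Plin1 to -0.08 (without Wt mouse 1), -0.12 (mutant mouse 3), -0.38 (Wt mouse 3) or -0.43 (mutant mouse 1), and that of Cidec to -0.21 without Wt mouse 1 or without mutant mouse 3.

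**Figure D1:**
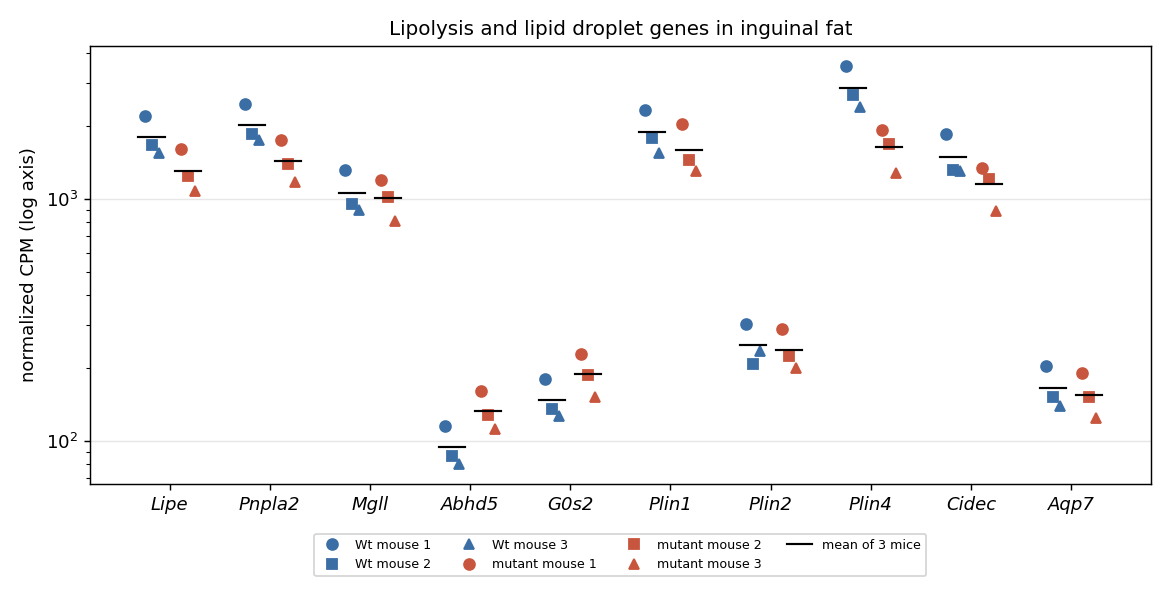
Normalized CPM (log axis) of each gene in each mouse, with Wt mice in blue, mutant mice in red, mouse numbers by symbol and the mean of 3 mice as a line. Mouse 1 is the highest of its genotype for all 10 genes, and only for Pnpla2 and Plin4 do all mutant mice lie below all Wt mice.

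Exons of 4 of the genes share bases with a gene on the other strand, and whether the counting used strand is not given in the sources used here. Lipe shares 918 bases with 4732471J01Rik (mean of 31.2 normalized CPM over the 6 mice against 1556 for Lipe), and Abhd5 shares 950 with A730085K08Rik (2.64 against 114). Mgll shares 167 with Gm26588 (8.64 against 1031) and Plin4 shares 17 with Hdgfl2 (37.0 against 2249). Each partner had a much lower level than its member gene.

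Levels of different genes were compared as normalized CPM per kilobase of exon. Cidec had the highest mean in both genotypes (803 ± 168 in Wt and 618 ± 126 in mutant mice, SD, n = 3), followed by Pnpla2 (669 ± 125 and 476 ± 95.6). In Wt the order went on with Plin4 at 497, Plin1 at 404, Lipe at 307, Mgll at 208, G0s2 at 169, Plin2 at 70.9, Aqp7 at 58.3 and Abhd5 at 15.8 per kilobase. In mutant mice Plin1, at 343, stood above Plin4, at 282, and G0s2, at 217, above Mgll, at 198. Neighbours in the Wt order did not overlap in range only between Lipe and Mgll, G0s2 and Plin2, and Aqp7 and Abhd5. In mutant mice this held only between Mgll and Plin2 and between Aqp7 and Abhd5, so the ranges over mice overlapped for both changes of order. Within each mouse, however, Plin4 stood above Plin1 and Mgll above G0s2 per kilobase in 3 of 3 Wt mice, and below them in 3 of 3 mutant mice. Lengths are those of all annotated exons of a gene, and these orders depend on that choice. Without division by length, Plin4 at 1677 was above Plin1 at 1443 in mutant mouse 2, and Mgll was above G0s2 in every mouse.

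The mice of each genotype differed in the same way for nearly all of these genes. Mouse 1 was the highest of its genotype in both genotypes for 10 of 10 genes, for 8 of 8 mature adipocyte markers and for 29.7% of all genes tested. Mouse 3 was the lowest mutant mouse for 10 of 10 and the lowest Wt mouse for 9 of 10. Within a genotype the highest mouse was 1.40 to 1.55 times the lowest at the deposited scaling. That scaling multiplied library sizes by 0.985, 1.03 and 1.11 in Wt and 0.962, 1.09 and 1.09 in mutant mice, which raised mouse 1 and lowered the others. As shares of all reads the 10 genes together were still highest in mouse 1 of each genotype. With library size alone the limma SE was 0.155 in place of 0.224 for Lipe and 0.178 in place of 0.251 for Plin4. As a description, deviations from the genotype means over the 6 mice correlated between genes with a median Pearson r of 0.977 over 45 pairs (0.870 to 0.999), and all pairs share the same 6 libraries. The mean log2 level of the adipocyte markers followed the same order, at 9.972, 9.589 and 9.442 in Wt against 9.999, 9.558 and 9.389 in mutant mice. The markers' mean thus differed more among mice than between genotypes. The summed B and T lymphocyte markers were lowest in mouse 1 of each genotype, at 493 in Wt and 43.7 in mutant mice, and their part in the order of the mice was not tested.

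Each gene was therefore also expressed relative to the mature adipocyte markers, as its log2(value + 0.5) minus the markers' mean in the same mouse, a scale chosen after the data were examined. On this scale the SD within genotypes fell for 10 of 10 genes, from 0.269 to 0.316 down to 0.0288 to 0.124. Plin4 was at 1.82, 1.80 and 1.78 in Wt and 0.91, 1.16 and 0.94 in mutant mice. Pnpla2 was at 1.29, 1.27 and 1.33 in Wt and 0.77, 0.89 and 0.81 in mutant mice. Lipe was at 1.12, 1.12 and 1.16 in Wt and 0.65, 0.72 and 0.69 in mutant mice. For these 3 genes the genotypes were separated by a gap wider than the spread within either. All 3 passed the limma test and were lower relative to the markers, with log2 differences of -0.80 (SE 0.09, adjusted p = 0.00702) for Plin4, -0.48 (SE 0.08, adjusted p = 0.026) for Pnpla2 and -0.45 (SE 0.08, adjusted p = 0.0291) for Lipe. Of all genes tested 2.9% passed on this scale, 0.273% lower and 2.63% higher. Leaving out any 1 mouse kept Plin4 past the threshold (adjusted p = 0.00985 to 0.0436 by limma) and ended the calls of Pnpla2 (0.0707 to 0.143) and Lipe (0.0832 to 0.158) in every case.

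The remaining genes did not pass relative to the markers. Abhd5 was at -3.12, -3.15 and -3.10 in Wt and -2.67, -2.55 and -2.58 in mutant mice, with every mutant mouse above every Wt mouse (log2 difference 0.52, SE 0.13, adjusted p = 0.108 by limma). G0s2 was at -2.47, -2.51 and -2.46 in Wt and -2.16, -2.01 and -2.13 in mutant mice, again without overlap (0.38, SE 0.13, adjusted p = 0.248). Plin1 and Cidec were lower in every mutant mouse than in every Wt mouse, with log2 differences of -0.23 (adjusted p = 0.268 by limma) and -0.36 (adjusted p = 0.194), while Mgll, Plin2 and Aqp7 overlapped, with differences of -0.04 to -0.07. In all, 5 of 10 were lower in every mutant mouse (3.73% of all genes) and 2 of 10 higher (12.3%). Such separation was not particular to these 10 genes. On this scale 2 of the 8 adipocyte markers were lower and 2 higher in every mutant mouse. The counts were 7 and 5 of the 28 other lipolysis and droplet genes tested, and 8 and 5 of the 28 signalling genes, both described below. The scale rests on markers that differed among themselves, since relative to their own mean Cfd (adjusted p = 0.00501) was lower and Retn (0.026) higher by limma.

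**Figure D2:**
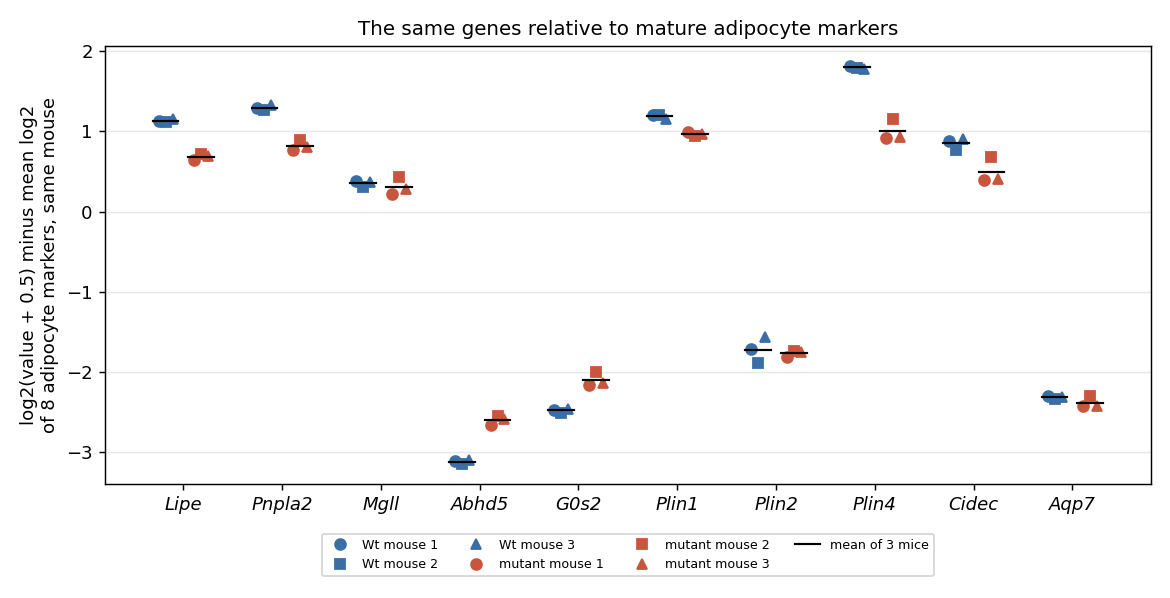
Log2(value + 0.5) of each gene minus the mean of 8 mature adipocyte markers in the same mouse, with symbols as in the plot of normalized CPM. Wt and mutant mice do not overlap for 7 genes, with Lipe, Pnpla2, Plin1, Plin4 and Cidec lower and Abhd5 and G0s2 higher in mutant mice.

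**Figure D3:**
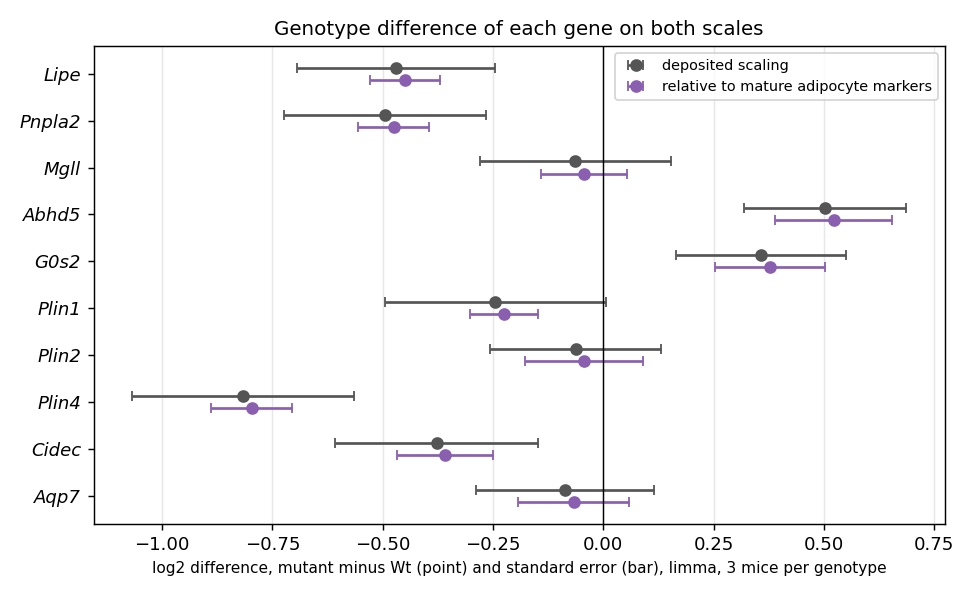
Log2 difference, mutant minus Wt, of each gene by limma at the deposited scaling (grey) and relative to mature adipocyte markers (purple), with bars of 1 standard error over 3 mice per genotype. The differences are close on both scales, from -0.82 and -0.80 for Plin4 to 0.50 and 0.52 for Abhd5, and the standard errors are smaller relative to the markers.

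Ratios of genes within a mouse do not depend on the scaling, and are given as reads of one gene per 100 reads of another, not corrected for length. The pairs were chosen after the values were seen, so their differences are descriptions without a test. Reads of Abhd5 per 100 of Pnpla2 were 4.71, 4.67 and 4.59 in Wt and 9.21, 9.21 and 9.52 in mutant mice. The activator thus had 2 times as many reads for each read of its lipase, with means of 4.66 ± 0.0577 and 9.31 ± 0.178 (SD, n = 3). Reads of G0s2 per 100 of Pnpla2 were 7.36, 7.28 and 7.20 in Wt and 13.07, 13.43 and 12.99 in mutant mice, a fold of 1.81 without overlap. Reads of Lipe per 100 of Pnpla2 were 89.3, 90.3 and 88.5 in Wt and 91.8, 88.8 and 92.2 in mutant mice. These overlapped, so the reads of both lipases kept to a narrow ratio in all 6 mice. Reads of Mgll per 100 of Pnpla2 were 53.5, 51.3 and 51.4 in Wt and 68.4, 73.0 and 69.4 in mutant mice, higher in every mutant mouse.

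Per 100 reads of Pnpla2, 7 of the other 9 genes had more reads in every mutant mouse than in every Wt mouse, beside 45.1% of all other genes tested, and 1, Plin4, had fewer in every mutant mouse, beside 0.528%. Plin4 per 100 reads of Plin1 was at 153, 150.3 and 155 in Wt and 95.0, 116 and 98.1 in mutant mice. Of the 6 pairs among Plin1, Plin2, Plin4 and Cidec, 4 did not overlap between genotypes, all 3 pairs with Plin4 and the pair of Plin2 and Cidec, while Plin1 overlapped with Plin2 and with Cidec. Abhd5 per 100 reads of Plin4 was at 3.26, 3.23 and 3.37 in Wt and 8.33, 7.65 and 8.70 in mutant mice, a fold of 2.50. Abhd5 per 100 reads of G0s2 was at 63.9, 64.1 and 63.8 in Wt and 70.4, 68.6 and 73.2 in mutant mice, higher in every mutant mouse, by a fold of 1.11. Of the 45 pairs of the 10 genes, 38 did not overlap between the genotypes and 7 did, beside 32.7% of all pairs of genes tested that did not. The 45 pairs are not independent, since each gene is in several of them. Within genotypes the 10 genes also moved together (median r of 0.977), which narrows their ratios, and the pairs of all genes were not matched for this.

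Among 30 other genes of lipolysis and the lipid droplet, 28 were tested and Cideb and Hsd17b13 were too low to be. By limma 1 was lower, Plin5, and 0 were higher, beside 8.11% of all genes tested that passed. An unadjusted p under 0.05 was found for 5 (24.2% of all genes). The median log2 difference was -0.14, with 21 below and 7 above 0, beside 9536 below and 7332 above among all 16868 genes. edgeR's quasi-likelihood test called 1, Plin5 (7.41% of all genes), and DESeq2 called 3 lower, Plin5, Ces1f and Angptl4 (12.6% of all genes in either direction). Plin5 (ENSMUSG00000011305, chr17:56111601-56117596, - strand), a coat protein of tissues that burn fat, was at 16.4, 11.4 and 12.2 normalized CPM in Wt and 5.40, 4.08 and 5.10 in mutant mice. Every mutant mouse was below every Wt mouse, by more than the spread of either group. The means were 13.4 ± 2.66 and 4.86 ± 0.689 (SD, n = 3), with a log2 difference of -1.36 (SE 0.18, adjusted p = 0.00794 by limma), and of -1.34 relative to the adipocyte markers (adjusted p = 0.0286). Plin5 had 91 to 391 reads per mouse and lies 1797 bases from Plin4 on the same strand, and in both of these neighbours every mutant mouse was below every Wt mouse.

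The 3 most abundant genes of this list did not pass. Lpl, the lipase that frees fatty acids from circulating lipoproteins, was at 8158, 6234 and 5050 in Wt and 11844, 9261 and 7573 in mutant mice, with Wt mouse 1 above mutant mouse 3 (log2 difference 0.56, SE 0.41, adjusted p = 0.428 by limma). Relative to the adipocyte markers its difference of 0.58 passed (adjusted p = 0.009). Fabp4, the fatty acid carrier of fat cells and 1 of those markers, was at 9575, 7560 and 6777 in Wt and 9361, 7365 and 5789 in mutant mice (-0.10, SE 0.40, adjusted p = 0.891 by limma). Cav1, a structural protein of caveolae, was at 2179, 1718 and 1371 in Wt and 2700, 2178 and 1769 in mutant mice (0.34, SE 0.26, adjusted p = 0.448 by limma). Lpl and Cav1 had higher means in mutant mice with overlapping groups, and Fabp4 nearly the same range in both.

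The lipolysis signalling list held 28 genes. They code for receptors, G proteins, cyclases, protein kinases A and G, phosphodiesterase, insulin signalling and Ptgs1, an enzyme of prostaglandin synthesis. All 28 were tested and 0 passed by limma (8.11% of all genes tested). An unadjusted p under 0.05 was found for 8 (24.2% of all genes), and the median log2 difference was -0.11. Their differences ran from -0.89 for Hcar2 to 0.79 for Npr3, with 18 below and 10 above 0. edgeR's quasi-likelihood test called 0 (7.41% of all genes) and DESeq2 called 4 (12.6%), with Npr3 and Tshr higher and Adcy5 and Hcar2 lower. Npr3, the clearance receptor for natriuretic peptides, was at 586, 550 and 397 in Wt and 974, 960 and 713 in mutant mice. Every mutant mouse was above every Wt mouse (log2 difference 0.79, SE 0.20, adjusted p = 0.068 by limma, and 0.0357 relative to the adipocyte markers). Gnas, the stimulatory G protein subunit, was at 1026, 914 and 864 in Wt and 1074, 954 and 935 in mutant mice (0.08, SE 0.14, adjusted p = 0.734 by limma). Prkar2b, a regulatory subunit of protein kinase A, was at 570, 464 and 368 in Wt and 672, 495 and 422 in mutant mice (0.18, SE 0.23, adjusted p = 0.653 by limma). Both overlapped between genotypes.

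**Figure D4:**
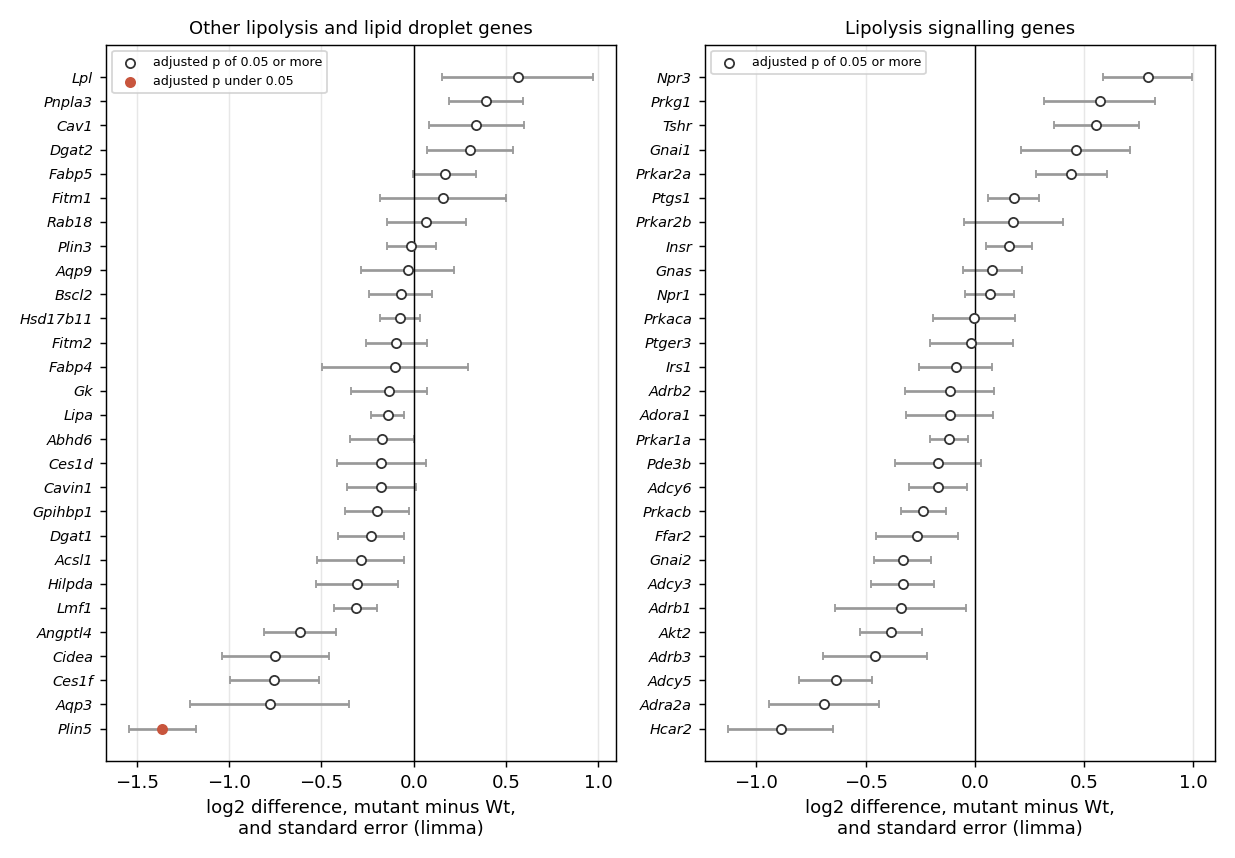
Log2 difference, mutant minus Wt, with bars of 1 standard error (limma, 3 mice per genotype) for 28 other lipolysis and lipid droplet genes (left) and 28 lipolysis signalling genes (right). The filled point is Plin5, at -1.36, and no signalling gene passed.

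The 5 genes whose log2 levels were most like the mean standardized profile of the 10 over the 6 mice were 2700046G09Rik, Pxmp4, Msrb1, Cdsn and Sil1, with Pearson r of 0.994 to 0.997. Msrb1, for example, was at 98.9, 77.7 and 74.4 normalized CPM in Wt and 90.4, 77.3 and 68.5 in mutant mice, highest in mouse 1 of each genotype. The r of each of the 10 with that mean ran from 0.990 for Aqp7 and 0.980 for Mgll to 0.732 for Plin4, 0.569 for G0s2 and 0.402 for Abhd5. Abhd5 and G0s2, with higher means in mutant mice, were thus farthest from the shared profile.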

How the data were processed

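RNA-seq libraries of iWAT from 3 mutant and 3 Wt mice were compared. The authors deposited, in a table for each genotype, a normalized signal per gene and mouse (CPM times a factor for each mouse). The submitters' processing notes name Bowtie2 2.1.0, RSEM 1.2.15, edgeR and the build mm10. Strand use, and whether both tables were scaled together, are not given in the sources used here. Every value was a whole number of reads times a step (100% within 0.01), so reads were recovered, 19607423 to 24228381 per mouse. A value of 3 reads was 0.126 to 0.157. Mice of 1 genotype differed by more than counting noise (chi-square over its degrees of freedom 19.3 to 64.9), so all 6 were kept.

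Genotypes were compared with limma 3.58.1 (trend) in R 4.3.3 on log2(value + 0.5), which understates changes of low genes, with Benjamini-Hochberg adjustment at an FDR of 0.05, over the 16868 genes that passed filterByExpr (edgeR 4.0.16) on those reads. The design had assumed counts where the files held them. The fit was tested on simulated data. Alternatives were edgeR's quasi-likelihood test, TMM, DESeq2 1.42.0, limma-voom, other filters and pseudocounts, leaving out each mouse, and a replicate block. GC correction in 20 bins and scaling to adipocyte markers were added after the data were examined. Coordinates and exon lengths are those of GENCODE M21 (99.8% of identifiers found). The 10 genes and all lists were chosen with earlier results of these data known. Named were, from each of the lists of other lipolysis and of signalling genes, those past the FDR by limma (at most 8) and the 3 most abundant, with Thra and the 5 genes most alike in profile. Other names were chosen after their values were seen. P-values set each genotype difference against the spread between these mice, and cannot tell genotype from other differences between the groups.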

Additional observations from a re-analysis of the deposited data

How the results depend on the processing

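None of the 10 genes passed under limma at the deposited scaling, or under edgeR's quasi-likelihood test with or without TMM, limma-voom, DESeq2's size factors, other filters or pseudocounts, GC correction or leaving out any 1 mouse. DESeq2 called 1 of the 10, 3 of the other lipolysis and droplet genes, 4 signalling genes and 2118 genes in all (782 lower, 1336 higher, beside 440 and 928). Scaling by library size called 1, with 2 signalling genes. It left 4 of the 10 lower and 1 higher in every mutant mouse, without a share of all genes to set beside these counts. With at least 10 reads in every mouse, 598 genes passed (253 lower, 345 higher). Relative to adipocyte markers the calls were 3, 2 and 1 in the 3 lists and 489 in all (46 lower, 443 higher), with 5 of the 10 lower in every mutant mouse, and leaving out 1 mouse on that scale left 1 of the 10 called each time while moving the median of all genes by -0.12 to 0.20. GC correction left 1 of the 10 lower in every mutant mouse and gave 156 lower and 843 higher calls.

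Mouse numbers were tried as a replicate block. Same-numbered mice are different animals, their deviations correlated at 0.686, 0.0573 and 0.560, and not every mouse correlated best with its own number. The replicate block called 5 of the 10 (3 lower, 2 higher), 7 other lipolysis and droplet genes, 11 signalling genes and 4063 genes (2330 lower, 1733 higher). The replicate block with GC correction called 5, 8, 10 and 3587 (1955 lower, 1632 higher), with 1 of the 10 lower in every mutant mouse. Leaving out 1 mouse gave 545 to 840 calls in all, or 1043 without mutant mouse 1, with 1 to 3 (without mutant mouse 1) other lipolysis and droplet genes, 0 to 1 (without mutant mouse 1) signalling genes, and 2 to 5 (without mutant mouse 1) of the 10 lower in every mutant mouse. Without Wt mouse 1, or without mutant mouse 3, 2 of the 10 were higher in every mutant mouse. The matching shares of all genes are not given for leaving out mice, library size scaling or GC correction, so these counts cannot be judged against them. Leaving out a mouse can only narrow the range of its group, so the groups separate more easily. The small differences ran from -0.194 (without mutant mouse 1) to 0.104 (without Wt mouse 1) for Mgll, -0.215 to 0.092 for Plin2 and -0.244 to 0.075 for Aqp7, turned to 0.082, 0.057 and 0.064 without mutant mouse 3, and that of Mgll turned to 0.060 with GC correction, with or without the block. The causes of these shifts were not tested. Of 200 values of single genes over 20 alternatives, 177 kept direction and side of the threshold, 15 passed it and 8 turned in sign.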
